A study of Mus musculus with 6 samples.

Results

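Solute carriers (SLC proteins) are the membrane transporters that move amino acids, sugars, metal ions, phosphate, nucleosides, vitamins and other small molecules into cells, out of cells and between organelles. The genes described here are the 188 of 11417 genes in the deposited expression table whose mouse symbol is Slc, a family number and a letter. The symbol pattern matched 193 genes, and 5 of them (Slc2a1, Slc7a11, Slc40a1, Slc39a14 and Slc11a2) were left out by the rule. The 188 genes fall into 43 numbered families, of which the mitochondrial carriers (family 25, 39 genes) and the nucleotide-sugar carriers (family 35, 21 genes) were the most numerous. Of the 188, 183 are named as transporters. The other 5 carry such a symbol but are not transporters: the scaffold proteins Slc9a3r1 and Slc9a3r2, Slc4a1ap, Slc7a6os and the pseudogene Slc2a4rg-ps.

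Expression was measured by sequencing poly(A) RNA of 3 established mouse mammary cell lines, with 2 libraries per line and 6 in all. Serum was at 10% in all media. BC44 and HC11 grew in RPMI with insulin at 5 µg/ml, and HC11 also received epidermal growth factor (EGF) at 10 ng/ml. C57MG grew in DMEM with insulin at 10 µg/ml. All 3 lines are labelled as mammary epithelial, were untreated on plastic dishes of 10 cm and were harvested 2 days after plating. Line and medium cannot be told apart, and nothing in the labels says that the libraries of a line came from separate cultures, so p-values measure the spread between these libraries, which may be technical.

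Each numbered SLC family groups carriers of related sequence, and most families share a substrate type. Growing cells draw on the Slc7a5 and Slc3a2 pair, which exchanges glutamine for leucine and other large neutral amino acids, on Slc1a5 for glutamine and on Slc20a1 for phosphate. In the mammary gland, carriers of amino acids, phosphate, zinc, choline and ions also serve the making of milk. In bulk RNA, fewer cells expressing a carrier and less RNA per cell cannot be told apart.

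Depth, estimated from the spacing of the low values, was 14160000 to 18370000 reads per library, and 3 reads corresponded to 0.082 to 0.106 RPKM (reads per kilobase of gene, scaled to 1000000 reads) for a gene of 2 kb. The labelled cell type was checked against marker lists. The summed RPKM of 16 mammary epithelial markers was 6807 to 7120 in BC44 and 3832 to 4693 in HC11 but 84.2 to 168.9 in C57MG, where 11 of the 16 were under 1 RPKM and Krt7 and Cldn3 were at 0 in both libraries. In BC44, Krt18 and Cldn3 were at 0 in both. The sum of 15 fibroblast and mesenchymal markers ran the other way, with 484.6 to 535.5 in BC44, 564.5 to 590.5 in HC11 and 8034 to 8269 in C57MG. Endothelial (2 genes), leukocyte (1 gene) and adipocyte (1 gene) markers summed to at most 2.38, 3.30 and 8.77 RPKM in any library. Every contrast with C57MG below is therefore between lines that also differ in these marker lists, whose part in the results was not tested. The BC44 libraries also held reads of genes that were otherwise private to C57MG, at a median of 0.656% (replicate 1) and 2.01% (replicate 2) of their C57MG level over 69 genes. The HC11 libraries held reads of genes otherwise private to BC44, at a median of 2.38% (replicate 1) and 1.21% (replicate 2) of their BC44 level over 18 genes. Of these genes 66.7% and 44.4% lay within 2-fold of the median, against 66.7% and 98.6% for the C57MG share in BC44 replicates 1 and 2. The share in HC11 was thus not uniform over genes. With its median subtracted from HC11, an alternative chosen after seeing the data, 98 members passed between BC44 and HC11, 93 of them among the 96 reported below.

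Between 148 and 158 of the 188 genes reached 1 RPKM in a library (78.7% to 84%, against 85% to 86.7% of all genes in the table), and 3 to 17 were listed at 0. No gene of the table was at 0 in every library. The summed RPKM of all members was nearly level, from 3354 to 3548, or 0.968% to 1.1% of a library's total. The median member stood at 6.07 to 6.995 RPKM, below the 9.12 to 9.27 of all genes. The tests used limma on log2(RPKM + 1) over 10759 genes that reached 1 RPKM in at least 2 libraries, among them 173 members. The other 15 members were too low to be tested, among them Slc5a5, the iodide carrier of thyroid and lactating breast, at 0.654 and 0.646 RPKM in BC44, at 0.368 and 0.477 in HC11 and at 0.076 and 0.089 in C57MG. Differences are given as the first-named line minus the second on the log2(RPKM + 1) scale, where those of low genes come out too small, and a gene passed at an adjusted p under 0.05.

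Between BC44 and HC11, 96 of 173 members passed (55.5%, against 47.7% of all genes tested), 53 of them higher in BC44 (30.6%, against 24.7%) and 43 higher in HC11 (24.9%, against 23%). Among those at least 2-fold apart the balance was the reverse, with 9 higher in BC44 (5.2%, against 5.42%) and 21 higher in HC11 (12.1%, against 7.09%). Between BC44 and C57MG, 125 passed (72.3%, against 71.7%), 60 higher in BC44 (34.7%, against 37.5%) and 65 higher in C57MG (37.6%, against 34.1%). Between HC11 and C57MG, 131 passed (75.7%, against 70.5%), 63 higher in HC11 (36.4%, against 37.4%) and 68 higher in C57MG (39.3%, against 33.2%). At least 2-fold apart were 57 members between BC44 and C57MG (32.9%, against 29.8%) and 61 between HC11 and C57MG (35.3%, against 27%). The libraries did not overlap for 137 members in BC44 against HC11 (79.2%, against 73.0%), 150 in BC44 against C57MG (86.7%, against 87.9%) and 155 in HC11 against C57MG (89.6%, against 86.2%). The shares passing in both contrasts with C57MG were thus close to the background. The median difference of the members was 0.05, 0.00 and -0.04 in the 3 contrasts, and that of all genes tested was 0.02, 0.04 and 0.03. The median size of the difference, without its sign, was 0.37, 0.65 and 0.64 for members and 0.30, 0.57 and 0.53 for all genes. Of 28 families with at least 2 tested members, 11, 18 and 20 had members passing in both directions in the 3 contrasts, taken in the order above. With 47.7%, 71.7% and 70.5% of all genes passing, split nearly evenly by direction, other groups of genes could show the same. No such groups were compared, so these counts are not read as a trait of the families. The replicate libraries of a line were closer to each other than the lines were, with a median distance of 0.117 in BC44, 0.143 in HC11 and 0.079 in C57MG.

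**Figure D1:**
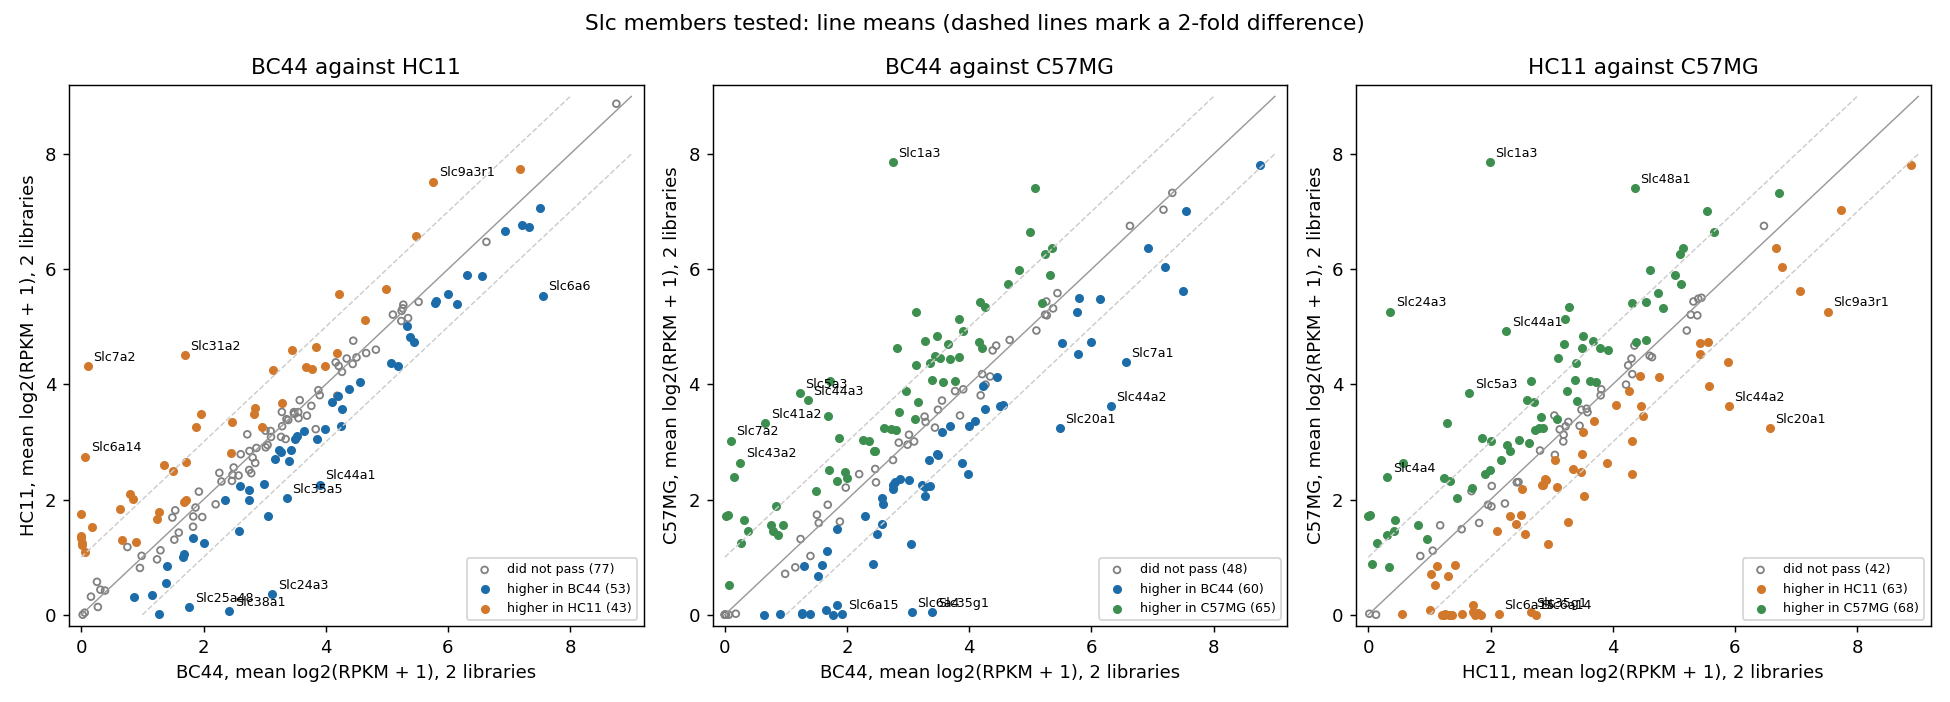
Mean log2(RPKM + 1) of the 2 libraries of each line for the 173 members tested, one panel per contrast, with coloured points for members past an adjusted p of 0.05 and open points for those that did not pass. Dashed lines mark a 2-fold difference, and Slc1a3, Slc48a1 and Slc24a3 lie far above them on the C57MG side, and Slc20a1 and Slc44a2 below.

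Carriers of amino acids and amines (families 1, 3, 6, 7, 36, 38 and 43, without the excluded Slc7a11) had the most RPKM after the mitochondrial carriers. Their summed RPKM was 993 and 955 in the BC44 libraries, 894 and 903 in C57MG and 654 and 625 in HC11. Without Slc1a3 the C57MG sums were 665.3 and 667.6, and those of HC11 were 650.5 and 622.2. Of 25 tested, 14 were higher in BC44 than in HC11 (56%, against 24.7% of all genes), 4 were higher in HC11 (16%, against 23%) and 7 did not pass, with a median difference of 0.43. With the C57MG share subtracted from the BC44 libraries these counts were 13 and 6. Against C57MG the same class was divided: 10 were higher in BC44 and 8 in C57MG (40% and 32%, against 37.5% and 34.1% of all genes), and 10 were higher in HC11 and 12 in C57MG (40% and 48%, against 37.4% and 33.2%).

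The subunits of the large neutral amino acid exchanger were highest in BC44 and lowest in C57MG. Slc7a5, its transporting light chain, was at 192 and 168 RPKM in BC44, at 151 and 117 in HC11 and at 50.2 and 46.9 in C57MG. Its heavy chain Slc3a2, which carries the light chain to the cell surface, was at 157 and 137 RPKM in BC44, at 113 and 104 in HC11 and at 63.7 and 65.1 in C57MG. The lines did not overlap in either gene, and both subunits kept the same order. Against C57MG the difference was 1.87 (SE 0.13, adjusted p = 8.88e-06) in BC44 and 1.44 (SE 0.13, adjusted p = 4.27e-05) in HC11 for Slc7a5, and 1.17 and 0.74 for Slc3a2 (adjusted p = 1.48e-05 and 0.000205). Between BC44 and HC11 Slc3a2 differed by 0.43 (SE 0.09, adjusted p = 0.00604). The matching value for Slc7a5, 0.43 (SE 0.13, adjusted p = 0.0279), was lost when either BC44 library or HC11 replicate 2 was left out (adjusted p from 0.054 to 0.163).

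Slc7a1, the main uptake route for arginine and lysine in dividing cells, had the same order at higher contrast, at 88.1 and 99.03 RPKM in BC44, at 59.7 and 56.6 in HC11 and at 21.5 and 18.5 in C57MG. It differed by 2.17 (SE 0.10, adjusted p = 1.05e-06) between BC44 and C57MG and by 1.5 (SE 0.10, adjusted p = 8.13e-06) between HC11 and C57MG. Slc7a2, the other carrier of cationic amino acids, had another order, at 11.5 and 30.7 RPKM in HC11, at 6.28 and 8.04 in C57MG and at 0.06 and 0.088 in BC44. Both BC44 libraries were therefore close to the level of 3 reads, while the HC11 libraries were more than 2-fold apart from each other. Slc7a2 was lower in BC44 than in HC11 (adjusted p = 0.000105) and than in C57MG (adjusted p = 0.000249), and HC11 against C57MG, 1.29 (SE 0.37, adjusted p = 0.016), did not pass without C57MG replicate 1 (adjusted p = 0.0831). The pair of arginine carriers thus gave BC44 the highest Slc7a1 and the lowest Slc7a2 of the lines.

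The glutamine carriers come next. Slc38a2, which takes up small neutral amino acids with sodium, was among the 12 most abundant members at 152 and 166 RPKM in BC44, at 104 and 106 in HC11 and at 149 and 170.1 in C57MG. BC44 and C57MG overlapped, and HC11 lay below both, with differences of 0.59 (SE 0.09, adjusted p = 0.00132) for BC44 against HC11 and -0.60 (SE 0.09, adjusted p = 0.000601) for HC11 against C57MG. Slc1a5, the glutamine exchanger, was at 21.9 and 19.8 RPKM in BC44, at 28.7 and 23.6 in HC11 and at 16.5 and 16.4 in C57MG, and HC11 exceeded C57MG by 0.63 (SE 0.11, adjusted p = 0.00138). Its call for BC44 against C57MG, 0.33 (SE 0.11, adjusted p = 0.0297), was lost without BC44 replicate 1 or either C57MG library (adjusted p from 0.105 to 0.151). Slc38a1, another glutamine carrier, was at 4.65 and 4.10 RPKM in BC44, at 0.032 and 0.05 in HC11 and at 0.837 and 0.85 in C57MG, and BC44 stood above C57MG by 1.54 (SE 0.10, adjusted p = 5.67e-06) and also passed against HC11 (adjusted p = 3.29e-06).

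Slc1a3 is a glutamate and aspartate carrier best known from astrocytes. On the log2(RPKM + 1) scale, where differences of low genes come out too small, it showed the widest difference of all members in both contrasts with C57MG. It stood at 228 and 235 RPKM in C57MG, at 4.15 and 7.76 in BC44 and at 3.32 and 2.63 in HC11. The difference was -5.11 (SE 0.23, adjusted p = 8.77e-07) for BC44 and -5.88 (SE 0.23, adjusted p = 6.03e-07) for HC11. Between BC44 and HC11 the difference was 0.76 (SE 0.23, adjusted p = 0.027). The C57MG share described above would supply 1.52 RPKM of the value in BC44 replicate 1 and 4.66 of that in replicate 2. With it subtracted, an alternative chosen after the data were seen, the difference was -0.04 (adjusted p = 0.819), and the call was also lost without BC44 replicate 2 or any 1 library of the other lines (adjusted p from 0.0506). Slc1a4, which carries alanine, serine and cysteine, had the same order at 41.9 and 37.1 RPKM in C57MG, at 19.1 and 17.2 in BC44 and at 10.00 and 7.64 in HC11, with C57MG above BC44 (-1.08, SE 0.13, adjusted p = 0.000201) and BC44 above HC11 (0.97, SE 0.13, adjusted p = 0.000866). Slc43a2, a facilitated carrier of large neutral amino acids, was at 4.57 and 5.99 RPKM in C57MG, at 0.218 and 0.171 in BC44 and at 0.418 and 0.556 in HC11, so that C57MG held more of it and less of Slc7a5.

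The sodium- and chloride-coupled carriers of family 6 had orders that differed by member. Slc6a6, the taurine carrier, was among the most abundant members and was at 191 and 181 RPKM in BC44, at 45.6 and 45.6 in HC11 and at 131 and 124 in C57MG. HC11 lay below BC44 by 2.01 (SE 0.07, adjusted p = 1.91e-06) and below C57MG with a difference of -1.47 (SE 0.07, adjusted p = 1.82e-06). Slc6a8, the creatine carrier, was also lowest in HC11, at 43.7 and 41.3 RPKM in BC44, at 26.9 and 24.6 in HC11 and at 50.8 and 43.4 in C57MG (0.70, SE 0.10, adjusted p = 0.000994 for BC44 against HC11). Slc6a4, the serotonin carrier, was at 7.2 and 7.42 RPKM in BC44, at 2.64 and 1.99 in HC11 and at 0.049 and 0.014 in C57MG, and BC44 exceeded HC11 by 1.33 (SE 0.12, adjusted p = 0.000116). Slc6a15, a neutral amino acid carrier, was at 2.50 and 3.12 RPKM in BC44, at 3.49 and 3.31 in HC11 and at 0.015 and 0 in C57MG. C57MG thus held next to no Slc6a4 or Slc6a15.

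Slc6a14, a broad amino acid carrier known from mammary and other epithelia, reached 1 RPKM in HC11 alone, at 2.52 and 11.7 RPKM in HC11, at 0.06 and 0.033 in BC44 and at 0 in both C57MG libraries. Its HC11 libraries differed more from each other than those of any other member tested. HC11 nonetheless passed against BC44 (adjusted p = 0.00358) and C57MG (adjusted p = 0.00167). Slc7a8, another light chain that pairs with Slc3a2, was at 1.29 and 1.44 RPKM in HC11. It was at 0 and 0.014 in BC44 and at 0 in both C57MG libraries.

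**Figure D2:**
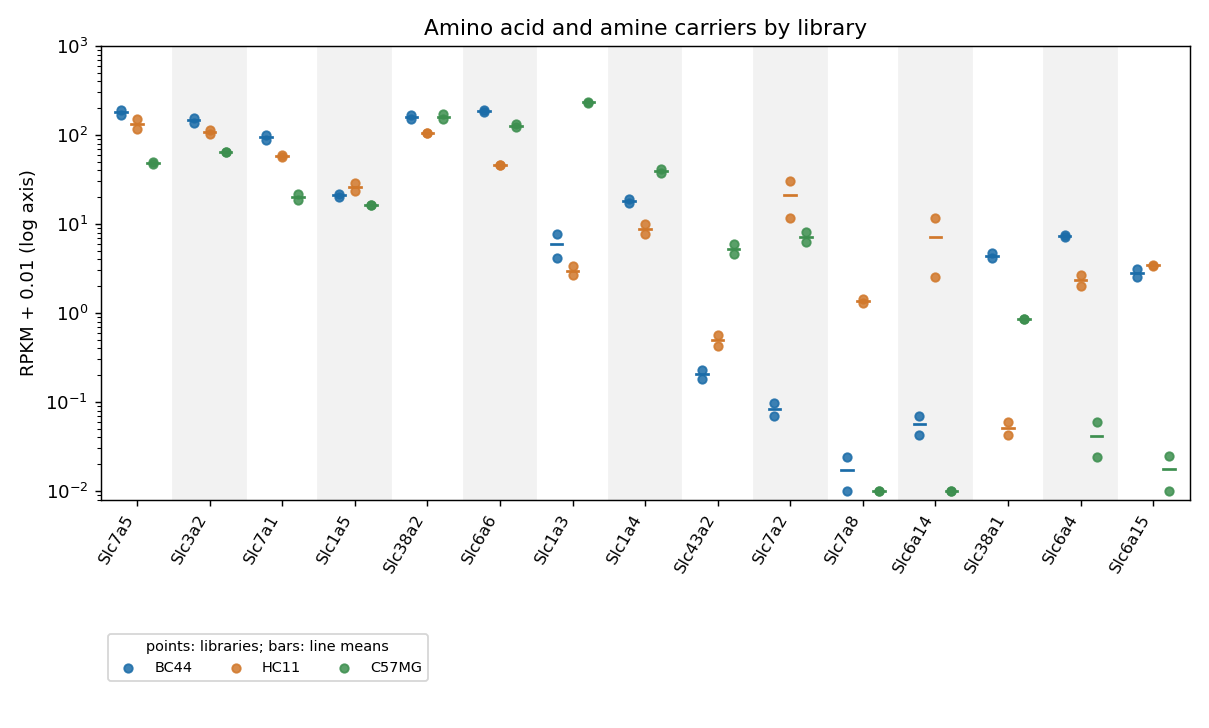
RPKM + 0.01 (log axis) of 15 carriers of amino acids and amines, one point per library and a bar at each line mean. Slc7a5, Slc3a2 and Slc7a1 descend from BC44 to HC11 to C57MG, Slc1a3 is at 228 and 235 RPKM in C57MG and under 8 elsewhere, and Slc6a14 reaches 2.52 and 11.7 RPKM in HC11 alone.

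Slc20a1, Slc20a2 and Slc34a2 were higher in HC11 than in both other lines. The class of 6 phosphate and sugar-phosphate carriers (families 20, 34 and 37) summed to 147.5 and 176.9 RPKM in HC11, 77.5 and 75.2 in BC44 and 39.5 and 38.7 in C57MG. Against BC44, 4 of the 6 were higher in HC11 (66.7%, against 23% of all genes tested), none was lower (against 24.7%) and 2 did not pass. Against C57MG, 4 were higher in HC11 (66.7%, against 37.4%) and 1 was lower (16.7%, against 33.2%). The 3 genes of families 20 and 34 were in both counts of 4, and the fourth gene differed between them. Slc20a1, the sodium-phosphate cotransporter that most cells use for uptake, was at 80.03 and 111 RPKM in HC11, at 43.6 and 43.5 in BC44 and at 9.74 and 7.3 in C57MG. No library of one line overlapped another, and the order HC11, BC44, C57MG held with differences of -1.09 (SE 0.17, adjusted p = 0.00166) for BC44 against HC11 and 2.24 (SE 0.17, adjusted p = 1.47e-05) for BC44 against C57MG. Slc20a2, its partner in family 20, shares 95 exonic bases with Smim19 on the opposite strand in GENCODE M21. It was at 45.5 and 47.7 RPKM in HC11, at 18.4 and 16.9 in BC44 and at 14.1 and 15.3 in C57MG. HC11 exceeded C57MG by 1.60 (SE 0.09, adjusted p = 3.03e-06), whereas BC44 against C57MG, 0.25 (SE 0.09, adjusted p = 0.035), was lost without BC44 replicate 1 or either C57MG library and with median-ratio scaling (adjusted p from 0.0534 to 0.193). Slc34a2, the sodium-phosphate carrier of secretory epithelia, was at 1.64 and 1.00 RPKM in HC11, at 0.027 and 0 in BC44 and at 0 in both C57MG libraries, passing for HC11 against BC44 (adjusted p = 0.000357) and C57MG (adjusted p = 0.000135). Slc37a4, which brings glucose-6-phosphate into the endoplasmic reticulum, was lower in C57MG instead, at 8.8 and 8.47 RPKM in BC44, at 8.35 and 6.74 in HC11 and at 3.90 and 3.42 in C57MG.

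Zinc, copper and magnesium carriers (families 30, 31, 39 and 41, without the excluded Slc39a14) were most abundant in C57MG. Their sums were 409.2 and 401.0 RPKM there, against 251.7 and 260.3 in BC44 and 274.9 and 267.4 in HC11. Of 18 tested, 9 were higher in C57MG than in BC44 (50%, against 34.1% of all genes) and 4 lower (22.2%, against 37.5%), and 10 were higher in C57MG than in HC11 (55.6%, against 33.2%) and 4 lower (22.2%, against 37.4%). Between BC44 and HC11, 4 were higher in BC44 (22.2%, against 24.7%) and 5 in HC11 (27.8%, against 23%), near the shares of all genes. Both counts were lower without BC44 replicate 1. Without BC44 replicate 2 or HC11 replicate 2 the count higher in BC44 was 2. The zinc exporters, family 30, went both ways. Slc30a1 exports zinc across the plasma membrane and is the classic target of the metal-responsive factor MTF1, while Slc30a4 loads zinc into vesicles and is known from the secretion of zinc into milk. Their promoter windows, from 250 bases before to 50 after the RefSeq start in build GRCm38.p6, are shown because C57MG was lowest for one of this pair of zinc exporters and highest for the other. Slc30a1 lies at chr1:191906531-191906830 on the plus strand and Slc30a4 at chr2:122702614-122702913 on the minus strand, and capitals mark the core of the metal response element, TGCGCNC or TGCACNC, on either strand.
Slc30a1: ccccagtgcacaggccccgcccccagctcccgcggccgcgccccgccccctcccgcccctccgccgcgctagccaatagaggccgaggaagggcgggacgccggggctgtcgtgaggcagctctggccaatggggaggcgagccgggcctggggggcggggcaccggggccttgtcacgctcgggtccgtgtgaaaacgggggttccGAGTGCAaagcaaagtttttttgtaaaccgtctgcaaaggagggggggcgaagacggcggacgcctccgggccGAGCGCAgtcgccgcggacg
Slc30a4: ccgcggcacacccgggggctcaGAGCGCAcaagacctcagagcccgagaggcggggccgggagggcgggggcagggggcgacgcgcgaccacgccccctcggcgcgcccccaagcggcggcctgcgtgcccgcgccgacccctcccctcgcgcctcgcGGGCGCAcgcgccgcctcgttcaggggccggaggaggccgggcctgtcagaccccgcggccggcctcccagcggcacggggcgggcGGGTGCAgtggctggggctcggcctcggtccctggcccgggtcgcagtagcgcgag
The window of Slc30a1 held 2 matches and that of Slc30a4 held 3. The core was found in 25.7% of 32851 RefSeq promoter windows and in 36.6% of the 191 windows of 148 members, so a match is frequent among windows of this length. In family 30, 3 of 6 windows held it.

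Slc30a1 was at 8.31 and 8.50 RPKM in BC44, at 6.39 and 6.12 in HC11 and at 3.87 and 3.62 in C57MG, and the lines did not overlap. BC44 exceeded C57MG by 0.99 (SE 0.10, adjusted p = 5.71e-05) and HC11 exceeded it by 0.61 (SE 0.10, adjusted p = 0.000846), while BC44 against HC11, 0.38 (SE 0.10, adjusted p = 0.0157), was lost without either BC44 library or HC11 replicate 2 (adjusted p from 0.0504 to 0.0723). Slc30a4 was highest in C57MG, at 60.5 and 64.7 RPKM in C57MG, at 26.02 and 28.5 in BC44 and at 23.5 and 23.1 in HC11. C57MG exceeded both, with differences of -1.17 (SE 0.08, adjusted p = 9.64e-06) for BC44 and -1.39 (SE 0.08, adjusted p = 4.65e-06) for HC11. The mRNAs of Slc30a1 and Slc30a4 thus differed in opposite directions between C57MG and the other lines. Whether the metal response core in their promoter windows plays a part was not tested.

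Of 8 zinc importers tested (family 39), 4 were higher in C57MG than in BC44 (50%, against 34.1% of all genes) and 1 lower (12.5%, against 37.5%). Against HC11, 5 were higher in C57MG (62.5%, against 33.2%) and 1 lower (12.5%, against 37.4%). Slc39a7, which releases zinc from the endoplasmic reticulum, led at 36.3 and 37.1 RPKM in BC44, at 33.5 and 33.1 in HC11 and at 79.5 and 73.1 in C57MG, a difference of -1.17 (SE 0.08, adjusted p = 7.34e-06) for HC11 against C57MG. Slc39a1, a plasma membrane importer, was at 25.2 and 22.8 RPKM in BC44, at 36.5 and 31.3 in HC11 and at 53.4 and 51.8 in C57MG. Slc39a13, a zinc carrier of the secretory pathway linked to connective tissue, was at 8.81 and 9.70 RPKM in BC44 and at 8.92 and 10.2 in HC11. In C57MG it was at 19.9 and 19.6, with no overlap between C57MG and the others. Its exons share 215 bases with Psmc3 on the opposite strand in GENCODE M21. Slc39a6, an importer known as an oestrogen-regulated gene of breast cancer cells, was at 18.6 and 23.1 RPKM in BC44, at 16.8 and 22.5 in HC11 and at 25.2 and 23.9 in C57MG and did not pass in any contrast (adjusted p from 0.0953 to 0.674). It passed for HC11 against C57MG without HC11 replicate 2 (adjusted p = 0.0233).

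The copper carriers differed from each other. Slc31a1, the high-affinity copper importer, was at 42.6 and 41.5 RPKM in C57MG, at 24.1 and 20.7 in HC11 and at 16.5 and 17.9 in BC44, and C57MG stood above BC44 with a difference of -1.24 (SE 0.10, adjusted p = 1.62e-05). Slc31a2, which is thought to move copper out of endosomes, was at 22.04 and 21.3 RPKM in HC11, at 9.80 and 10.02 in C57MG and at 2.02 and 2.45 in BC44. BC44 held the least and HC11 the most, with a difference of -2.81 (SE 0.10, adjusted p = 2.08e-06). Slc41a2, a magnesium carrier, was at 9.66 and 8.46 RPKM in C57MG, at 1.15 and 1.79 in HC11 and at 0.601 and 0.568 in BC44, and C57MG was above BC44 (-2.66, SE 0.14, adjusted p = 2.45e-06). Its smaller BC44 against HC11 difference, -0.63 (SE 0.14, adjusted p = 0.00955), did not pass without BC44 replicate 1 or replicate 2 (adjusted p = 0.052 and 0.058).

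Carriers of bicarbonate, protons and chloride (families 4, 9, 12 and 26) went both ways. Of 18 tested, 8 were higher in C57MG than in BC44 (44.4%, against 34.1% of all genes) and 4 lower (22.2%, against 37.5%), and 10 were higher than in HC11 (55.6%, against 33.2%) and 4 lower (22.2%, against 37.4%). Between BC44 and HC11, 5 were higher in BC44 (27.8%, against 24.7%) and 4 in HC11 (22.2%, against 23%), near the shares of all genes, and 9 did not pass. These counts were down to 3 and 2 without either BC44 library, and the count higher in HC11 was also 2 without either C57MG library or HC11 replicate 2. Slc12a2, the sodium-potassium-chloride cotransporter of secretory epithelia, was lowest in C57MG, at 14.3 and 15.3 RPKM in BC44, at 17.6 and 20.5 in HC11 and at 4.52 and 4.32 in C57MG. Both BC44 and HC11 exceeded C57MG, by 1.54 (SE 0.10, adjusted p = 7.83e-06) and 1.88 (SE 0.10, adjusted p = 3.31e-06). BC44 against HC11, -0.34 (SE 0.10, adjusted p = 0.0317), was lost without any 1 library other than HC11 replicate 1, and with only the 4 libraries of these lines (adjusted p from 0.0552 to 0.146). Slc12a7, a potassium-chloride exporter that runs the opposite way across the membrane, was highest in C57MG, at 6.88 and 6.71 RPKM in BC44, at 8.69 and 8.43 in HC11 and at 13.1 and 14.5 in C57MG.

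Slc4a4, a sodium-bicarbonate cotransporter, was at 3.70 and 4.82 RPKM in C57MG, at 0.174 and 0.316 in HC11 and at 0.12 and 0.111 in BC44. Slc4a11, a family member that carries protons and water, was at 1.64 and 2.16 RPKM in HC11, at 0.151 and 0.115 in BC44 and at 0.011 and 0.013 in C57MG. Slc4a7, the sodium-bicarbonate carrier that is widely used in breast epithelium, was at 21.3 and 18.6 RPKM in BC44, at 13.3 and 14.9 in HC11 and at 23.3 and 22.8 in C57MG, with HC11 lowest (0.47, SE 0.10, adjusted p = 0.00676 for BC44 against HC11). Slc9b1, a relative of the sodium-proton exchangers known from testis, was at 2.15 and 2.39 RPKM in C57MG, at 0 and 0.031 in BC44 and at 0 in both HC11 libraries.

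Slc9a3r1 is not a carrier but a PDZ scaffold (NHERF1) that holds carriers and channels under the apical membrane of epithelia. It was at 183 and 182 RPKM in HC11, at 57.7 and 49.1 in BC44 and at 38.4 and 36.5 in C57MG, so that HC11 exceeded both other lines without overlap. The difference was -1.76 (SE 0.09, adjusted p = 8.46e-06) for BC44 against HC11 and 2.25 (SE 0.09, adjusted p = 7.46e-07) for HC11 against C57MG. All 5 members that are not transporters were higher in HC11 than in C57MG (100%, against 37.4% of all genes tested). Among them the pseudogene Slc2a4rg-ps was low, at 1.03 and 1.03 RPKM in HC11 and at 0.576 and 0.697 in C57MG (adjusted p = 0.0488). Its call was lost with the BC44 share subtracted from HC11 (adjusted p = 0.0574).

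Slc24a3 and Slc48a1 had their highest level in C57MG. Slc24a3, a potassium-dependent sodium-calcium exchanger, was at 36.2 and 38.6 RPKM in C57MG, at 7.93 and 7.53 in BC44 and at 0.177 and 0.398 in HC11. The lines were apart in the order C57MG, BC44, HC11, with differences of -2.14 (SE 0.12, adjusted p = 2.56e-06) for BC44 against C57MG and 2.77 (SE 0.12, adjusted p = 3.47e-06) for BC44 against HC11. The C57MG share in the BC44 libraries would supply 0.245 and 0.752 RPKM of the BC44 values. Slc48a1, which brings haem from lysosomes into the cytosol, was at 182 and 158 RPKM in C57MG, at 31.04 and 34.3 in BC44 and at 19.96 and 19.2 in HC11, with differences of -2.34 (SE 0.10, adjusted p = 6.03e-07) and -3.05 (SE 0.10, adjusted p = 3.14e-07) against C57MG. Its exons share 29 bases with Hdac7 on the opposite strand in GENCODE M21.

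Choline-like carriers (family 44) had orders that differed by member. Slc44a2 was at 81.8 and 75.2 RPKM in BC44, at 54.6 and 63.6 in HC11 and at 11.5 and 11.1 in C57MG, far lower in C57MG than in BC44 (2.69, SE 0.10, adjusted p = 3.79e-07) and HC11 (2.28, SE 0.10, adjusted p = 8.89e-07). Its BC44 against HC11 difference, 0.41, did not pass without BC44 replicate 1 (adjusted p = 0.0733). Slc44a1, the best characterised choline carrier of the family, was lowest in HC11, at 28.8 and 29.9 RPKM in C57MG, at 14.7 and 13.2 in BC44 and at 4.10 and 3.50 in HC11 (-2.66, SE 0.10, adjusted p = 6.65e-07 for HC11 against C57MG). Slc44a3 was lowest in BC44 and highest in C57MG, at 1.76 and 1.37 RPKM in BC44, at 6.00 and 4.2 in HC11 and at 11.9 and 12.7 in C57MG (-2.38, SE 0.16, adjusted p = 7.52e-06 for BC44 against C57MG). In RPKM, Slc44a2 was the leading member of the family in BC44 and HC11 and Slc44a1 in C57MG.

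The nucleoside carriers also had different orders. Slc29a1, the main equilibrative carrier of nucleosides, was at 43.4 and 36.4 RPKM in BC44, at 41.98 and 28.4 in HC11 and at 88.9 and 75.7 in C57MG, and C57MG exceeded BC44 (-1.03, SE 0.18, adjusted p = 0.00148) and HC11 (-1.22, SE 0.18, adjusted p = 0.000615). Slc29a2, the second equilibrative carrier, was at 7.33 and 7.21 RPKM in BC44, at 6.49 and 6.95 in HC11 and at 1.61 and 1.08 in C57MG and was lower in C57MG (1.83, SE 0.13, adjusted p = 1.03e-05 for BC44 against C57MG). Slc28a3, which concentrates nucleosides with sodium, was listed at 0 in all 4 BC44 and C57MG libraries and at 1.36 and 1.82 RPKM in HC11 (adjusted p = 5.76e-05 against BC44 and 2.06e-05 against C57MG).

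Slc16a1, the lactate carrier of growing cells, was at 30.4 and 36.4 RPKM in BC44, at 34.5 and 37.7 in HC11 and at 31.2 and 28.05 in C57MG, overlapped between BC44 and both other lines, and did not pass in any contrast (adjusted p from 0.0537 to 0.435). HC11 against C57MG passed without either BC44 library (adjusted p from 0.039). Its relative Slc16a9 was at 2.47 and 2.20 RPKM in C57MG, at 0.035 and 0.044 in BC44 and at 0.014 and 0.036 in HC11.

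Among sugar and sodium-coupled carriers (families 2, 5, 45 and 50, without the excluded Slc2a1), C57MG held the most RPKM. Its sums were 55.5 and 55.0, against 24.2 to 30.4 in the other libraries. Slc5a3, which takes up myo-inositol and is known as an osmotic stress gene, was at 11.8 and 15.1 RPKM in C57MG, at 1.86 and 2.46 in HC11 and at 1.32 and 1.37 in BC44 (-2.62, SE 0.15, adjusted p = 2.98e-06 for BC44 against C57MG). Its exons share 159 bases with Mrps6 on the same strand in GENCODE M21, so its reads can include those of Mrps6. Slc50a1, a sugar carrier of the Golgi, was at 28.1 and 23.98 RPKM in C57MG, at 12.7 and 10.9 in HC11 and at 9.66 and 7.90 in BC44. Slc5a8, a sodium-coupled carrier of monocarboxylates, went the other way, at 3.33 and 1.93 RPKM in BC44, at 2.59 and 1.97 in HC11 and at 0.114 and 0.146 in C57MG. Of the vitamin carriers, Slc23a2, which takes up ascorbate, was at 9.84 and 9.95 RPKM in BC44, at 22.4 and 24.3 in HC11 and at 21.4 and 21.8 in C57MG and was lower in BC44 than in HC11 (-1.16, SE 0.08, adjusted p = 3.79e-05) and C57MG (-1.05, SE 0.08, adjusted p = 1.86e-05). Slc19a2, which takes up thiamine, was lowest in BC44 and highest in C57MG, at 2.67 and 1.94 RPKM in BC44, at 4.47 and 6.27 in HC11 and at 14.96 and 16.3 in C57MG (-2.34, SE 0.17, adjusted p = 1.06e-05 for BC44 against C57MG).

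**Figure D3:**
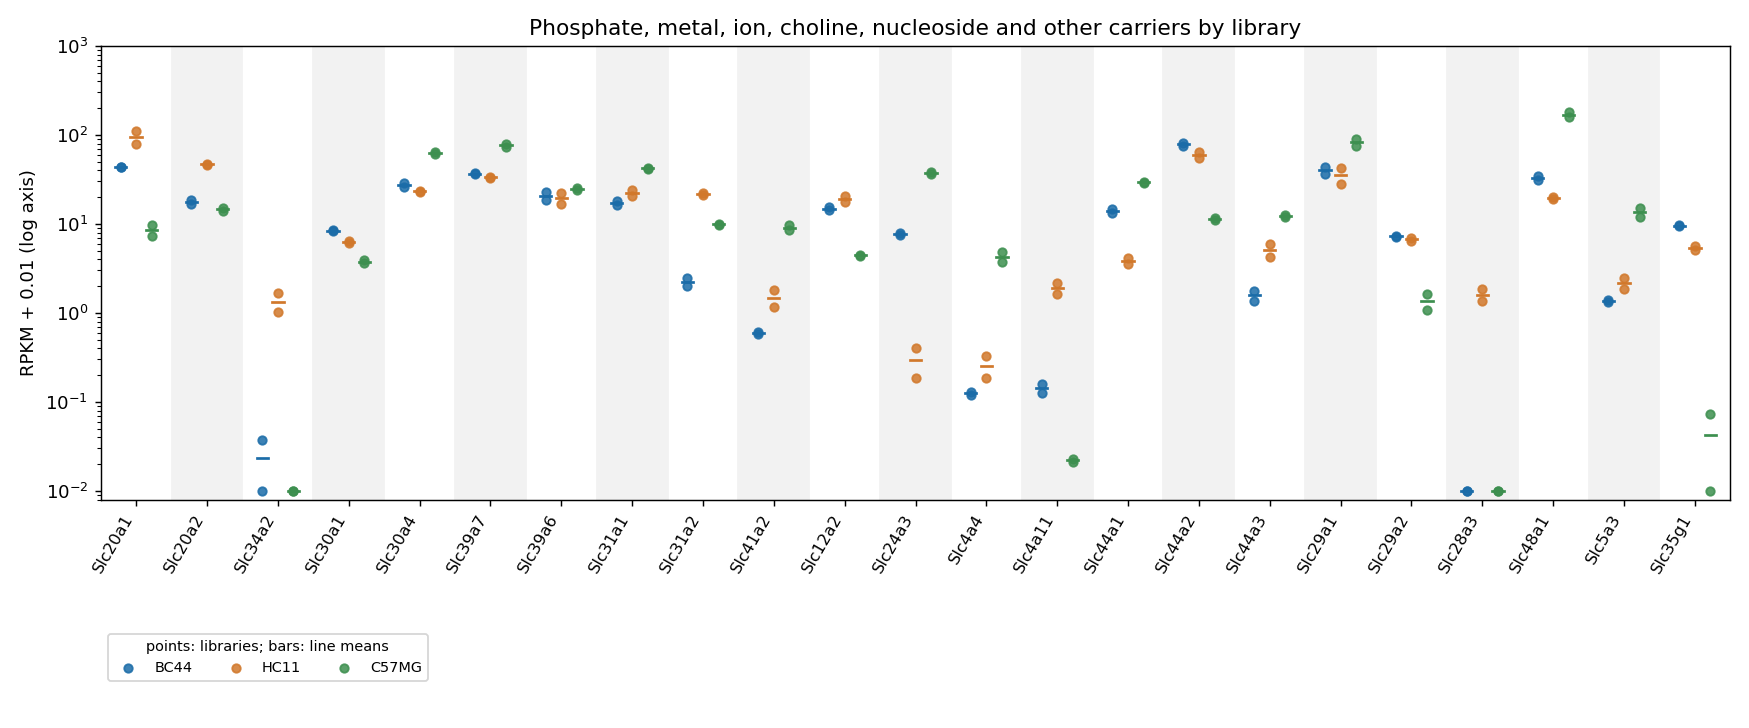
RPKM + 0.01 (log axis) of 23 carriers of phosphate, metals, ions, choline, nucleosides and other substrates, one point per library and a bar at each line mean. Slc20a1 is highest in HC11 and lowest in C57MG, C57MG is lowest for Slc30a1 and highest for Slc30a4, and Slc48a1 and Slc24a3 are highest in C57MG.

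The mitochondrial carriers (family 25) were the largest class. They had a summed RPKM of 1237 and 1260 in BC44, of 1351 and 1305 in HC11 and of 1056 and 995.4 in C57MG. Of 37 tested, 8 were higher in BC44 and 9 in HC11, and 20 did not pass. These shares of 21.6% and 24.3% were close to the 24.7% and 23% of all genes, and the 8 became 5 without BC44 replicate 2. Against C57MG, 11 were higher and 11 lower in BC44 (29.7% each, against 37.5% and 34.1%), and 14 higher and 9 lower in HC11 (37.8% and 24.3%, against 37.4% and 33.2%). Slc25a5, an ADP/ATP exchanger and the most abundant of all members, was at 415 and 448 RPKM in BC44, at 478 and 458 in HC11 and at 242 and 204 in C57MG. BC44 and HC11 did not differ beyond the threshold (-0.12, SE 0.10, adjusted p = 0.363), and both exceeded C57MG, by 0.95 (SE 0.10, adjusted p = 7.69e-05) and 1.07 (SE 0.10, adjusted p = 4.68e-05). Slc25a4, the isoform known from muscle and heart, was instead most abundant in HC11, at 139 and 149 RPKM in BC44, at 211 and 215 in HC11 and at 132 and 129 in C57MG (-0.56, SE 0.07, adjusted p = 0.000604 for BC44 against HC11). Slc25a3, which brings phosphate into mitochondria, was at 119 and 122 RPKM in BC44, at 102 and 99.6 in HC11 and at 82.7 and 81.1 in C57MG. Slc25a39, linked to mitochondrial glutathione, was at 104 and 91.996 RPKM in BC44, at 98.7 and 78.3 in HC11 and at 108 and 105 in C57MG and did not pass in any contrast. Without HC11 replicate 1 it passed in both contrasts with HC11 (adjusted p = 0.0477 and 0.0106), and with the BC44 share subtracted from HC11 it passed for HC11 against C57MG (adjusted p = 0.0484).

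Further mitochondrial carriers were named for their abundance, for the size of their differences or after their values were seen. Slc25a10, which exchanges dicarboxylates for phosphate, was at 63.2 and 62.6 RPKM in BC44, at 49.4 and 43.3 in HC11 and at 25 and 26.1 in C57MG (1.27, SE 0.09, adjusted p = 7.81e-06 for BC44 against C57MG). The pair of aspartate-glutamate carriers had different orders: Slc25a12 was at 10.96 and 12.2 RPKM in BC44, at 8.63 and 7.74 in HC11 and at 26.4 and 23.9 in C57MG, and Slc25a13 was at 13.8 and 12.9 RPKM in BC44, at 24.9 and 23.1 in HC11 and at 21.4 and 21.02 in C57MG. C57MG had the most Slc25a12, and BC44 the least Slc25a13. Slc25a24, the calcium-dependent ATP-Mg/phosphate carrier, was lowest in BC44 and highest in C57MG, at 28.4 and 33.3 RPKM in BC44, at 43.3 and 55.9 in HC11 and at 101 and 96.7 in C57MG (-1.65, SE 0.13, adjusted p = 1.80e-05). Slc25a37 (mitoferrin, the mitochondrial iron importer) was lowest in BC44, at 8.09 and 7.43 RPKM in BC44, at 15.8 and 20.6 in HC11 and at 19.1 and 19.2 in C57MG. Slc25a15, the ornithine carrier, and Slc25a33, a pyrimidine nucleotide carrier, were lowest in C57MG. Slc25a15 was at 8.90 and 8.55 RPKM in BC44, at 11.5 and 9.57 in HC11 and at 3.14 and 3.18 in C57MG. Slc25a33 was at 13.4 and 14.1 RPKM in BC44, at 12.9 and 14.98 in HC11 and at 5.78 and 4.71 in C57MG. Slc25a48 was at 2.15 and 2.68 RPKM in BC44, at 0.08 and 0.103 in HC11 and at 0 in both C57MG libraries.

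Nucleotide-sugar carriers and their relatives (family 35), most of which feed glycosylation in the Golgi and endoplasmic reticulum, had 21 tested members, of which 10 were higher in BC44 than in HC11 (47.6%, against 24.7% of all genes), 4 were higher in HC11 (19%, against 23%) and 7 did not pass, with a median difference of 0.23. Against C57MG, 10 were higher and 8 lower in BC44 (47.6% and 38.1%, against 37.5% and 34.1%), and 5 higher and 8 lower in HC11 (23.8% and 38.1%, against 37.4% and 33.2%). Each of these counts of 8 became 5 without C57MG replicate 1, and that of the BC44 contrast also without BC44 replicate 1. Slc35a1, which brings CMP-sialic acid into the Golgi, was at 6.29 and 5.85 RPKM in BC44, at 10.5 and 10.01 in HC11 and at 23.8 and 23.5 in C57MG. C57MG exceeded HC11, which exceeded BC44, with differences of -1.14 (SE 0.09, adjusted p = 2.00e-05) for HC11 against C57MG and -0.67 (SE 0.09, adjusted p = 0.000762) for BC44 against HC11. Slc35a5 was highest in BC44, at 9.48 and 9.03 RPKM in BC44, at 3.06 and 3.05 in HC11 and at 3.67 and 3.75 in C57MG. Slc35g1 was at 9.44 and 9.63 RPKM in BC44, at 5.09 and 5.57 in HC11 and at 0.064 and 0 in C57MG, and the BC44 signal in C57MG replicate 1 (0.729% over 9 genes) would supply 0.0695 RPKM to the value seen there. BC44 exceeded HC11 by 0.74 (SE 0.10, adjusted p = 0.000936). Slc35f1 was listed at 0 in all BC44 and C57MG libraries and was at 1.515 and 1.497 RPKM in HC11. Slc35a4, the most abundant of the family, was at 51.7 and 57.6 RPKM in BC44, at 41.8 and 43.8 in HC11 and at 44.7 and 44.1 in C57MG. Its exons share 152 bases with Apbb3 on the opposite strand, and whether the counting used the strand is not given in the sources used here.

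Carriers of organic ions (family 22) were few. Slc22a4, which takes up ergothioneine and carnitine, was at 8.33 and 8.83 RPKM in HC11, at 2.71 and 2.67 in BC44 and at 1.80 and 2.36 in C57MG (-1.38, SE 0.12, adjusted p = 9.45e-05 for BC44 against HC11). Slc22a17, a receptor for the iron-binding protein lipocalin 2, was at 1.70 and 1.15 RPKM in BC44 and at most 0.024 in the other libraries. Slc22a23, whose substrate is not known, was the most abundant of the family, at 10.7 and 11.1 RPKM in BC44, at 13.1 and 11.4 in HC11 and at 15.6 and 15.4 in C57MG.

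**Figure D4:**
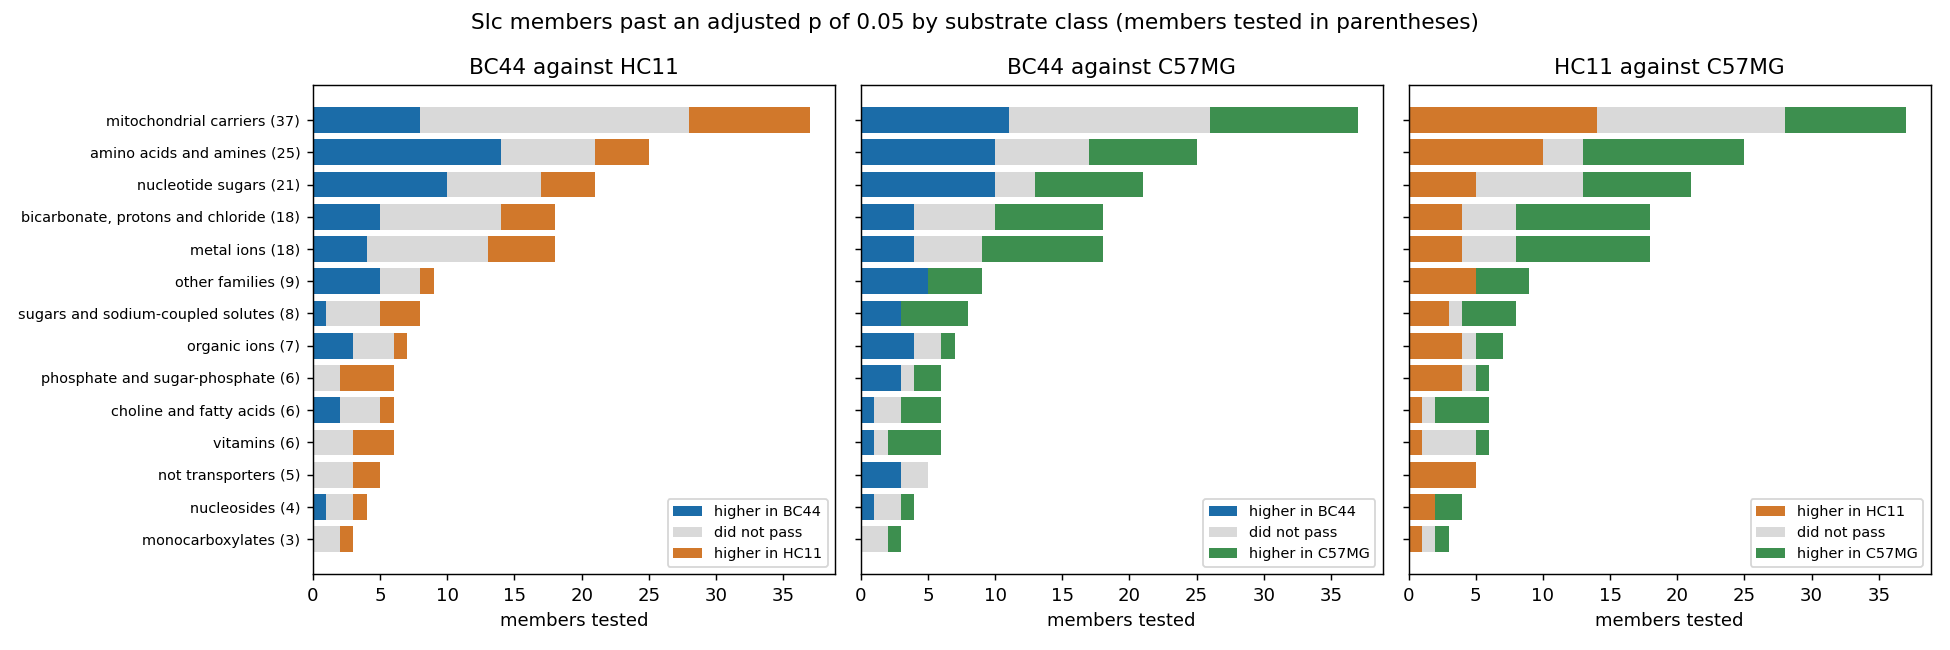
Number of tested members per substrate class that passed an adjusted p of 0.05 in each direction or did not pass, one panel per contrast. Amino acid carriers are 14 to 4 in favour of BC44 over HC11, phosphate carriers 4 to 0 in favour of HC11, and metal carriers 9 to 4 and 10 to 4 in favour of C57MG. Of all genes tested, 24.7% were higher in BC44 than in HC11 and 23% lower. In C57MG 34.1% were higher and 37.5% lower than in BC44, and 33.2% and 37.4% than in HC11.

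Members that set 1 line apart were counted as those whose 2 libraries were at least 2-fold above, or below, every library of the other lines on RPKM + 1, with no test. HC11 stood above in 11 of 173 (6.36%, against 2.81% of all genes tested), among them Slc20a2, Slc22a4, Slc28a3, Slc31a2, Slc35d2, Slc35f1, Slc4a11, Slc6a14, Slc7a8 and Slc9a3r1. Of the 11, 3 had a mean of at least 5 RPKM over all libraries. HC11 stood below in 3 (1.73%, against 0.995%): Slc6a6, Slc24a3 and Slc44a1. BC44 stood above in 5 (2.89%, against 2.65%), namely Slc38a1, Slc6a4, Slc25a48, Slc35a5 and Slc22a17, and below in 3 (1.73%, against 2.45%), namely Slc7a2, Slc31a2 and Slc23a2.

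C57MG stood above in 15 (8.67%, against 8.4%), among them Slc1a3, Slc48a1, Slc24a3, Slc30a4, Slc5a3, Slc19a2, Slc41a2, Slc43a2 and Slc4a4, and below in 13 (7.51%, against 7.59%), among them Slc7a5, Slc7a1, Slc20a1, Slc44a2, Slc12a2, Slc29a2, Slc35g1, Slc6a4 and Slc6a15. The shares for C57MG were close to those of all genes. The series title names GRHL factors, whose core motif AACCNGTT was searched on either strand. The core was in 2.09% of all promoter windows and in 2.62% of the members' windows. It was in 0 of the 15 windows found for 10 of the 13 members low in C57MG. With a core this rare, 15 windows are too few to tell these members from other genes, and GRHL action was not tested.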

How the data were processed

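The authors deposited RPKM values (reads per kilobase and 1000000 reads), 1 per gene and library. STAR and mm9 are named in the submitters' processing notes, without versions or roles; gene lengths, filters and strand use are not given in the sources used here. No gene was at 0 in all libraries. All per-sample columns were used. Libraries were grouped by their titles and compared by line, with 2 libraries per line.

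From these values log2(RPKM + 1) was fitted with limma 3.58.1 (R 4.3.3; trend) on all 6 libraries, for genes with at least 1 RPKM in at least 2 libraries. The tests were two-sided, with Benjamini-Hochberg adjustment over 10759 genes in each of 3 contrasts and a threshold of 0.05. The fit was also run on simulated data with far fewer changed genes than these lines showed, and no conclusion is drawn from that run. Tables and figures were made with Python 3.11.15, pandas 2.3.3, numpy 2.4.6 and matplotlib 3.10.9. Depth was estimated from steps in low RPKM values with exon lengths of GENCODE M21, where 75.8% to 82.7% of the values used lay near whole reads against 30.0% by chance. Depths and floors cover counting error only. Promoter windows and motifs are from RefSeq (GRCm38.p6), with windows for 148 of 188 members by symbol. That build is not mm9, so no other coordinates are given.

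Members, substrate classes and lists were chosen with earlier results of these data known. Named members are, per contrast and direction, the 6 with the largest change among those that passed and did not overlap, the 12 most abundant, the most abundant and the most variable of each family with at least 8 genes, and 24 fixed names, of which Slc16a3, Slc30a2 and Slc39a8 were not analysed here. This gave 49 names, and 31 more were chosen after their values were seen; some of these are not reported here. Alternatives were another pseudocount (0.1), no filter, a mean of at least 5 RPKM, quantile and median-ratio scaling, only the 4 libraries compared, no trend, a replicate block, leaving out each library, and, added after seeing the data, subtraction of another line's signal (of C57MG and BC44 from each other, or of BC44 from HC11). That signal was the median share, in a library, of genes averaging 20 RPKM or more in the other line, at most 2% of it in the third line and at most 5% in the other replicate.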

Additional observations from a re-analysis of the deposited data

How the results depend on the processing

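With genes of at least 5 RPKM on average, fewer members were tested. The shares of all genes under this filter were not computed, so its counts have no background beside them. Of the members reported as passing, 61, 80 and 80 were still tested in the 3 contrasts, and 60, 80 and 80 passed again. In BC44 against HC11 61 members passed, with 24 on the HC11 side. In BC44 against C57MG 81 passed, 37 on the BC44 side, and in HC11 against C57MG 80 passed, 35 on the HC11 side and 45 on the other. Members that set a line apart were then 1 (above in BC44), 3 (above in HC11), 8 (above in C57MG) and 8 (below in C57MG). Leaving out 1 library gave 72 to 90, 108 to 126 and 111 to 129 members in the 3 contrasts. A line left with 1 library is assumed to vary like the others. Higher in BC44 than in HC11 were 38 to 52 and higher in HC11 34 to 38. Higher in BC44 than in C57MG were 52 to 62 and lower 55 to 66. Higher in HC11 than in C57MG were 51 to 61 and lower 59 to 68. Counts of members under the other alternatives stayed within 1.5 times the reported value. Of 3720 alternative values for 237 results on single members, 3626 kept direction and side of the threshold, 64 lost the call, 29 gained one and 1 reversed, which was Slc1a3 between BC44 and HC11 with the signal of C57MG subtracted (-0.04).

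The labels give replicates by number only. Same-numbered libraries of BC44 and HC11 deviated together, with a correlation of 0.354, and those in the contrasts with C57MG hardly did (-0.039 and 0.038). What the same-numbered libraries of BC44 and HC11 had in common is not given in the labels. With the replicate block 99, 126 and 134 members passed, against 96, 125 and 131, and 94, 125 and 130 were called in both fits. The number of libraries and the depth limit what is said of low members: 3 reads are worth 0.082 to 0.106 RPKM at 2 kb.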

Other observations

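Transporters of the SLC class whose symbol is not Slc, a family number and a letter, such as the organic anion carriers named Slco, were also compared. Of 46 listed, 27 were in the table and 26 were tested. Between BC44 and HC11, 6 were higher in BC44 (23.1%, against 24.7% of all genes tested) and 8 in HC11 (30.8%, against 23%). Between BC44 and C57MG, 10 were higher in BC44 (38.5%, against 37.5%) and 8 in C57MG (30.8%, against 34.1%). Between HC11 and C57MG, 12 were higher in HC11 (46.2%, against 37.4%) and 8 in C57MG (30.8%, against 33.2%). Most of these shares were near those of all genes. Their median differences were -0.03, 0.08 and 0.09 on the log2(RPKM + 1) scale. The examples here were chosen after their values were seen. Ucp2, a mitochondrial carrier of family 25 named for uncoupling, was at 56.0 and 47.8 RPKM in BC44, at 38.4 and 32.5 in HC11 and at 0.309 and 0 in C57MG. Ank, which exports pyrophosphate and ATP, was at 110.9 and 107 RPKM in BC44, at 24.8 and 24.7 in HC11 and at 18.9 and 18.2 in C57MG. The prostaglandin carrier Slco2a1 was at 59.3 and 63.8 RPKM in C57MG, 6.44 and 16.98 in HC11 and 3.17 and 3.30 in BC44. Xpr1, the exporter of phosphate, was at 12.2 and 11.96 RPKM in C57MG, 5.52 and 5.01 in HC11 and 2.98 and 2.74 in BC44, and was thus highest in the line with the lowest Slc20a1.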
